A study of Mus musculus with 4 samples.

Results

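The macrophage spots outside nascent muscle were 266 of the 3032 Visium capture spots on the day 7 section, in a series of 10835 spots. A capture spot is a small area of tissue that can hold several cells of different kinds, and its RNA was counted as unique molecular identifiers (UMIs) per gene. Of the 2948 spots with at least 2000 UMIs, 295 were set aside as nascent muscle because Myh3, Myh8, Myl4 and Tnnt2, sarcomere genes of newly forming fibres, took a share of the spot's UMIs at or above the 90th percentile. Among the remaining 2653 spots, the macrophage spots were selected on the share of UMIs taken by 5 macrophage markers, at or above its 90th percentile. The markers were C1qa, C1qb and C1qc, which encode the chains of complement C1q, Adgre1, which encodes the F4/80 antigen, and Ms4a7. The 2387 spots left over are called the other spots below.

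The sections came from tibial muscle of Nse-Bmp4 mice on a C57BL/6 background, aged 6 to 8 weeks, in which the promoter of neuron-specific enolase drives a Bmp4 transgene and bone forms in muscle after injury. The uninjured muscle was called day 0, and injured muscle was taken 1, 3 and 7 days after injury, which the methods describe as cardiotoxin injection. All groups carried the transgene. The labels say that 3 tibial muscles were mixed per group, which the methods state for the single-cell samples. How this applies to the sections is not given. There was 1 section per day, so no spread between animals could be measured, no p-value is given, and every value below describes 1 section.

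Macrophages in injured muscle come from cells that already lived between the fibres and from blood monocytes that enter after injury. They take up dead cells and debris, break them down in lysosomes, present antigen on MHC class II, make complement, and release growth factors and chemokines that act on muscle progenitors and mesenchymal stromal cells (MSCs). Cells that live long in connective tissue and around vessels are known for Lyve1, Mrc1, Folr2 and Ccl8, whereas cells laden with lipid from debris are known for Spp1, Gpnmb and Trem2. In heterotopic ossification the MSCs turn to cartilage and then to bone, and macrophages have been described beside them.

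The 4 sections held between 16777832 and 56113066 UMIs, with 41832640 at day 7. The macrophage spots had 2078 to 57940 UMIs, with a median of 10722 against 11770 in the other spots. Each barcode marks a position on the array, so 1539 to 2311 barcodes recurred between pairs of sections without the spots being shared. The spots were chosen by the share of the 5 markers, which is described only. It ran from 17.1 to 70.6 per 10000 UMIs, with a median of 22.6, against a median of 5.45 in the other spots. These shares rested on 4 to 190 marker UMIs per spot, with a median of 26. The 5 spots just inside the threshold lay between 17.1 and 17.2 per 10000, and the 5 just outside between 16.9 and 17.0. When each spot's UMIs were split at random into 2 equal sets, and 1 set chose the spots, the markers in the unused set were 3.32 times as high in the chosen spots (3.20 to 3.45, an exact 95% interval). In all UMIs the ratio was 3.90. These and all later intervals cover counting error only.

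**Figure D1:**
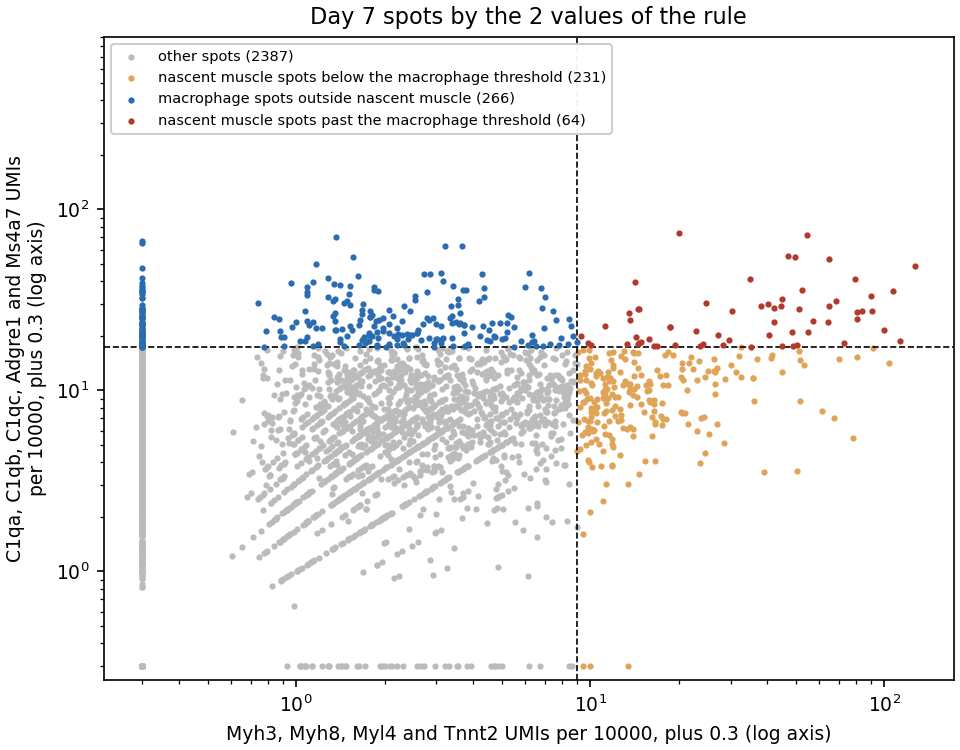
Each point is 1 spot of the day 7 section, placed by the share of the 4 nascent muscle genes (x axis) and of the 5 macrophage markers (y axis), both per 10000 UMIs plus 0.3 on log axes, with the thresholds of the rule as dashed lines. The 266 macrophage spots outside nascent muscle fill the upper left, and 64 nascent muscle spots lie past the same macrophage threshold in the upper right.

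The label was checked with 20 other macrophage genes that had no part in the rule, among them Cd68, Csf1r, Lyz2 (lysozyme), Tyrobp and Fcer1g. Their summed level was 3443 CPM (UMIs scaled to a common total) in the macrophage spots and 1156 in the other spots, a ratio of 2.98 (2.92 to 3.04). Spot by spot, the list took from 0 to 93.5 per 10000 UMIs of a macrophage spot, with a median of 28.9, and 95.5% of the macrophage spots lay above the other spots' median of 9.09. The groups overlapped, since the highest of the other spots reached 53.2. Only 155 of the 266 macrophage spots were in the highest 10% of eligible spots by this list. The other genes were counted in the same spots as the markers, so these values describe the spots and are not independent of the rule. A higher share of macrophage RNA in a spot can come from more macrophages or from more RNA per macrophage, which cannot be told apart here.

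Apart from mast cell genes, which are described below, RNA of other leukocytes was scarce. The 10 neutrophil genes summed to 65 UMIs over all macrophage spots, a ratio of 3.22 (2.39 to 4.30) to the other spots. The 8 NK cell genes summed to 58 UMIs, a ratio of 3.01 (2.19 to 4.07). Of the T cell genes, Cd3d had 5 UMIs, Cd3g had 2 and Cd3e had 1, and the B cell gene Ms4a1 had 1. The immunoglobulin genes Ighm and Igkc had 179 and 26 UMIs. The T cell list stood at 29.4 CPM against 10.7 in the other spots, and Cd4 made up 46.1% of it. The B cell list was 64.3 against 73.7 CPM, a ratio of 0.873 that was 1.27 when the other spots were reweighted to the same distribution of adult myofibre share. The dendritic cell list was 46.2 against 21.4 CPM on 160 UMIs. None of the genes in the neutrophil, NK, T and dendritic cell lists reached the level at which single genes were compared.

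Single genes were compared where they had at least 10 CPM over all 2653 spots, and a gene was called higher or lower where its CPM ratio was past 1.5 either way. Of 8597 genes, 2197 were higher in the macrophage spots (25.6%) and 406 lower (4.72%). The rule used the same spots and the same contrast, so these counts are a description. The median log2 ratio of all tested genes was 0.30. Among lists described below, the median was 1.98 for resident macrophage, 0.74 for lipid-handling, 0.68 for cell cycle and 0.68 for endothelial genes. It was 0.59 for smooth muscle and pericyte genes and 0.28 for inflammatory cytokine genes. With a total that left out mitochondrial, haemoglobin and adult myofibre genes the median of all tested genes was 0.07, and 57.3% of the calls were higher against 84.4% with all UMIs. Scaling with edgeR's TMM factors moved the median to -0.11 and turned the split to 655 higher and 1335 lower, so that 32.9% of the calls were higher. DESeq2's size factors gave a median of -0.11 with 658 higher and 1325 lower. In this comparison the directions of the lists described below held under both scalings.

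Genes of long-lived tissue macrophages were among the lists with the largest summed ratios. The 12 genes of the resident macrophage list summed to 1945 CPM in the macrophage spots and 483 in the other spots, a ratio of 4.03 (3.92 to 4.15), and all 9 genes that could be compared were higher under total UMIs and under TMM factors. The list's median log2 ratio was 1.98. Its summed ratio was 2.58 when Adgre1 and Ms4a7 alone chose the spots. Ccl8, a chemokine of such cells, was 595 against 106 CPM (5.61, 5.31 to 5.93). It was found in most macrophage spots, with a median of 3.67 per 10000 and a highest value of 64.1, and 36 spots had no Ccl8 UMI. Mrc1, the mannose receptor, was 297 against 71.4 CPM (4.16, 3.86 to 4.48), and 91.0% of the macrophage spots lay above the other spots' median. Lyve1, a hyaluronan receptor, was 53.9 against 9.24 CPM (5.84, 4.83 to 7.05). Its RNA was sparse, with no UMI in 188 of the 266 spots. F13a1 (3.88), Clec10a (4.03), Folr2, a folate receptor (3.94), Pf4 (3.27), Cd163, the haemoglobin scavenger receptor (3.23), and Cbr2 (2.84) were higher as well. Mgl2, Timd4 and Vsig4 were too low to be compared, with 51 UMIs of the first and 28 of each of the others.

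The largest ratio of all tested genes belonged to Cd209f, a C-type lectin of the DC-SIGN family, with 93.2 against 14.9 CPM (6.25, 5.41 to 7.23). No UMI of Cd209f was found in 159 of the 266 spots. Fcna, which encodes the lectin ficolin A, was 73.9 against 14.4 CPM (5.11, 4.37 to 5.98). Ccl9, a macrophage chemokine, was 156 against 33.1 CPM (4.71, 4.23 to 5.23). Beside these, Lyve1 and Ccl8, the 12 largest ratios held Hp (haptoglobin, 5.72), the complement gene C4b (5.47), Cyp2e1, a cytochrome P450 (5.35), Nnat (neuronatin, 5.26), Cfd (adipsin, 5.20) and Cidec (a lipid droplet protein, 4.62). The lymphatic chemokine gene Ccl21a was 418.9 against 80.03 CPM, but near-identical copies of this gene lie in the mouse genome and reads may be split among them, so its value is uncertain.

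Genes of lipid-laden macrophages were higher too, with a smaller ratio. The 12-gene lipid-handling list was 5365 against 2530 CPM, a ratio of 2.12 (2.09 to 2.15), and 9 of its 12 genes were higher, but only 3 under TMM factors. Apoe, the lipid carrier apolipoprotein E, made up 67.1% of the list's UMIs and was 3602 against 1343 CPM (2.68, 2.63 to 2.74). Without Apoe the list's ratio was 1.49. Trem2, a lipid sensing receptor, was 70.4 against 27.3 CPM (2.58) and Abca1, a cholesterol exporter, was 129 against 52.9 CPM (2.43). Gpnmb was 43.3 against 22.3 CPM (1.94) and Spp1, osteopontin, was 56.8 against 31.8 CPM (1.79). These genes were absent from most of the spots, with no UMI of Trem2 in 162, of Gpnmb in 182 and of Spp1 in 171 of the 266. The fatty acid genes Cd36 (1.21) and Lpl (0.907) and the lipid droplet gene Plin2 (1.44) did not reach the fold.

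The study's M1 and M2 macrophage gene lists were read as given, and both were higher to a similar degree. All 5 genes of its M2 list (Mrc1, Csf1r, Tgfb1, Cd163 and Retnla) were higher, with a summed ratio of 3.40 (3.25 to 3.57). Retnla, a gene of alternatively activated macrophages, was 88.3 against 20.8 CPM (4.25), with no UMI in 199 spots and up to 91.4 per 10000 in 1 spot. The M1 list had a summed ratio of 3.26 (2.70 to 3.92) on 159 UMIs, 73.0% of them from the Fc receptor gene Fcgr1, its only gene that could be compared (3.78). Tnf had 1 UMI and Il1a none in the 266 spots, and Il1b had 26. Only 2 genes of the inflammatory cytokine list could be compared, and neither encodes a cytokine. Of these, Nfkbia (1.51) was just past the fold and Ptgs2 (0.978) was not, and neither was past it under TMM factors.

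Genes of recruited monocytes and of chemokines were raised as well. In the recruited monocyte list 5 of 6 tested genes were higher, with a summed ratio of 2.26 (2.18 to 2.34). Plac8 (3.87), Ccr2, the receptor for monocyte attracting chemokines (3.55), and S100a4 (2.16) were among them, whereas Msrb1 was 0.777. Hp made up 40.0% of this list, and fat cells also make it. Ly6c2 and Chil3, which mark fresh monocytes, had 37 and 10 UMIs. All 5 tested genes of the chemokine list were higher under both scalings, with a ratio of 3.94 (3.75 to 4.14). These genes were Ccl6 (4.41), Ccl7 (3.94), Ccl9, Ccl2 (3.66) and Cxcl16 (2.32). The chemokine ratio was 2.20 when Adgre1 and Ms4a7 alone chose the spots. The 9 tested interferon response genes were all higher under both scalings, with a summed ratio of 3.14 (3.02 to 3.27). Ifi27l2a, at 429 against 110 CPM (3.91), made up 41.8% of the list, and Isg15, a ubiquitin-like protein, was 56.3 against 15.2 CPM (3.70). The interferon-induced chemokine Cxcl10 was below the level for comparison, with 37.2 against 6.80 CPM.

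Complement RNA outside C1q was also higher in these spots. All 11 genes of the list were tested and all were higher under both scalings, with a summed level of 2458 against 756 CPM, a ratio of 3.25 (3.17 to 3.33). C3, the central component, was 690 against 193 CPM (3.57), and C4b was 327 against 59.8 CPM (5.47). Cfb (4.26) and C2 (4.16), which supply the proteases of the C3 convertases, and Cfp, properdin (3.87), were higher. So were the receptors C5ar1 (3.78) and C3ar1 (3.55) and the inhibitor gene Serping1 (2.44). In MHC class II presentation, all 6 tested genes were higher under both scalings, with a summed ratio of 2.47 (2.41 to 2.53). Cd74, the invariant chain, was 841 against 347 CPM (2.42), and H2-Eb1 (2.57), H2-Ab1 (2.57) and H2-Aa (2.42) lay close to it. The class II list varied among the spots, from 0 to 120.8 per 10000 with a median of 11.7, and 82 of the 266 spots were in the highest 10% of eligible spots.

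Genes of digestion and uptake followed with smaller ratios. Of 15 lysosome genes 14 were higher, with a summed ratio of 1.88 (1.86 to 1.90), and 10 of them under TMM factors. Grn, progranulin (2.71), Lgmn, legumain (2.54), and the cathepsins Ctsh (2.51) and Ctsb (2.17) led this list, whereas Ctsd was 1.33. Among efferocytosis genes, which serve the clearance of dead cells, 6 of 9 were higher, with a ratio of 2.18 (2.13 to 2.23). Rac2 (3.64), the scavenger receptor Stab1 (3.38), Gas6, the bridging ligand of the Axl and Mertk receptors (3.05), Lrp1 (2.04), Pros1 (1.99) and Axl (1.98) were those genes. Of 7 iron and heme genes 4 were higher, namely Trf, transferrin (3.63), Blvrb (2.51), Hmox1, heme oxygenase (2.43), and Ftl1 (2.18). Tfrc, the transferrin receptor, was lower (0.594), and Fth1 was 1.07, which fell below 1 under TMM factors.

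Secreted ligands that macrophages can supply to stroma were unevenly raised. Of 13 tested ligand genes 7 were higher and 1 lower, and under TMM factors 4 were higher and 4 lower. Gas6 was 666 against 219 CPM (3.05, 2.90 to 3.19) and Igf1, insulin-like growth factor, was 329 against 136 CPM (2.41, 2.26 to 2.58). Pdgfc (2.49), Lgals9 (2.13), Spp1, Tgfb1 (1.77) and Thbs1 (1.68) were the other ligands past the fold. Inhba, the activin A subunit, was lower (0.601), and Vegfa (0.837), Bmp6 (0.819) and Pdgfa (0.812) were on that side without passing the fold. Osm, oncostatin M, had 2 UMIs and Il10 had 5.

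**Figure D2:**
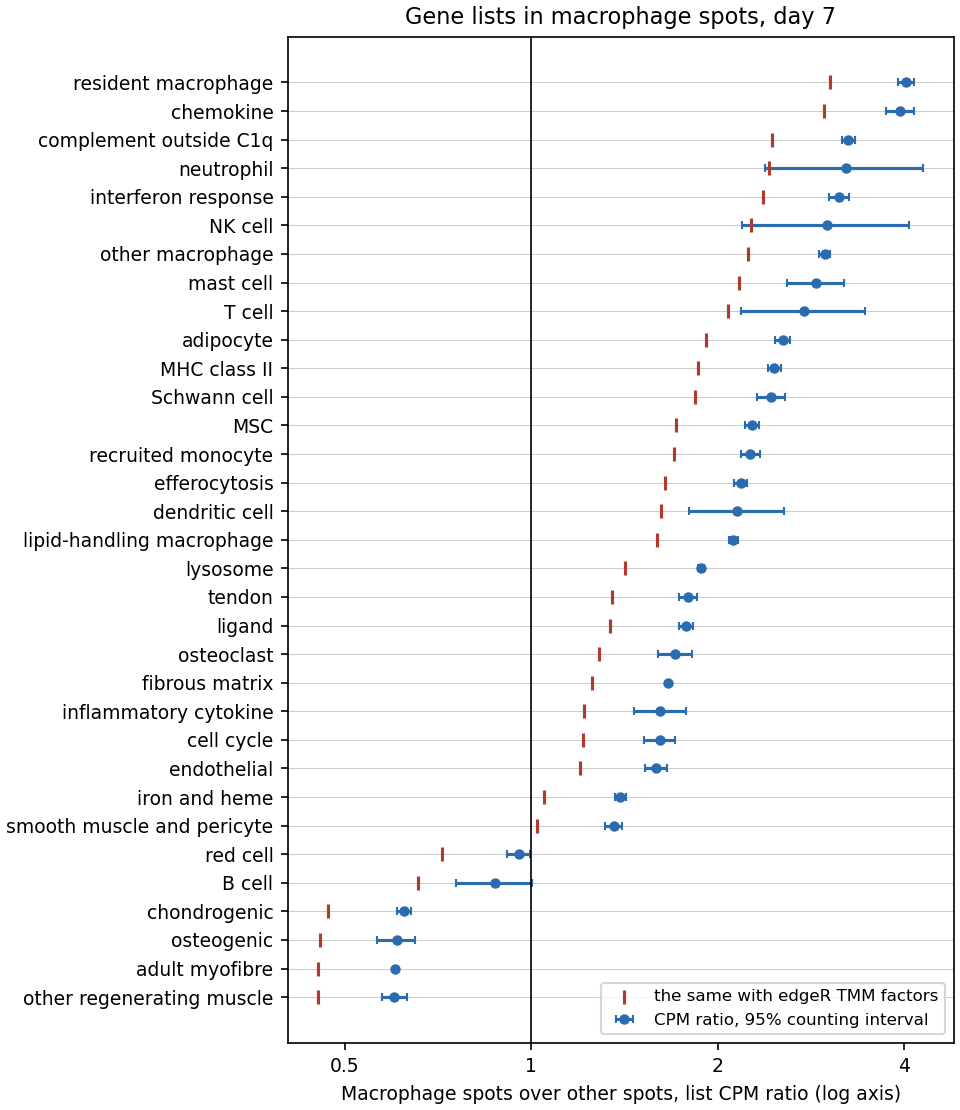
Blue points give, for each gene list shown, its CPM in the 266 macrophage spots over its CPM in the 2387 other spots on a log axis, with the exact 95% counting interval, and red ticks the same ratio with edgeR TMM factors. The gene lists of the rule, the study's M1 and M2 lists and the skin epithelium list are not shown. Macrophage lists, complement, chemokines and interferon genes lie to the right, and cartilage, bone and muscle lists to the left of 1. The cartilage and bone lists passed 1 when Adgre1 and Ms4a7 alone chose the spots. The other regenerating muscle list passed 1 when nascent muscle spots were kept (1.32) or its most abundant gene was left out (1.02).

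Stromal RNA was higher in the same spots, and the summed level of cartilage genes was lower except when Adgre1 and Ms4a7 alone chose the spots. All 6 genes of the MSC list (Pdgfra, Prrx1, Ly6a, Ly6e, Cxcl12 and Adam12) were higher, 4 of them under TMM factors, with a summed level of 2046 against 899 CPM, a ratio of 2.28 (2.22 to 2.34). Spot by spot the list ran from 2.48 to 63.7 per 10000, with a median of 17.1 against 7.78, and 92.1% of the macrophage spots lay above the other spots' median. Per 100 UMIs of the other macrophage list, the MSC list had 59.4 in the macrophage spots, of which Ly6a had 22.9 and Ly6e 18.7. Cxcl12, a chemokine of stromal cells, was 340 against 140 CPM (2.43), and Pdgfra, a defining receptor of muscle MSCs, 66.1 against 35.4 CPM (1.86). Fibrous matrix genes had a ratio of 1.67 (1.66 to 1.67), with 8 of 10 higher, among them Fbn1 (2.86), Postn (2.22) and Col3a1 (2.20). That list's ratio was 0.917 when the other spots were reweighted to the same distribution of adult myofibre share.

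None of 13 tested chondrogenic genes was higher and 8 were lower, with a summed level of 1805 against 2896 CPM, a ratio of 0.623 (0.607 to 0.640). Col2a1, the main collagen of cartilage, was 327 against 758 CPM (0.431, 0.406 to 0.457), Hapln1 was 0.455 and Col9a1 0.485. Comp (0.942) and Col11a1 (0.831) lay closer to 1. The spots themselves did not follow the pooled ratio, since 65.0% of the macrophage spots lay above the other spots' median of 6.92 per 10000. The macrophage spots ran from 0.611 to 196.4 with a median of 10.9, whereas the highest of the other spots reached 662, and only 8 of the 266 were in the highest 10% of eligible spots. The pooled ratio and the medians thus ran in opposite directions, and when Adgre1 and Ms4a7 alone chose the spots the pooled ratio was 1.07. Of the osteogenic genes, Ibsp, bone sialoprotein, was lower (134 against 261 CPM, 0.514), and Alpl (0.713), Sp7 (0.753) and Runx2 (1.09) did not pass the fold. The osteogenic list was 1.04 with Adgre1 and Ms4a7 alone.

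Cell cycle genes were 388 against 241 CPM, a ratio of 1.61 (1.52 to 1.71) that was 0.995 when the other spots were reweighted by adult myofibre share, and 8 of 12 were higher, but 1 of 12 under TMM factors. Mcm6, a replication helicase subunit (2.07), Mcm3 (1.98), Top2a (1.81) and Mki67 (1.73) were among the 8. Adult myofibre genes were lower, with 12 of 13 past the fold and a summed level of 93521 against 155286 CPM, a ratio of 0.602. When all eligible spots were ordered into 5 bins of adult myofibre share, 124 macrophage spots (46.6%) fell in the lowest bin and 4 (1.504%) in the highest, against 17.1% and 22.1% of the other spots. Under the same reweighting the other macrophage list was 2.27, the resident list 3.71 and the MSC list 1.85.

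Markers of fat, nerve, vessels and mast cells were raised beside the macrophage genes. The adipocyte list was 2.55 (2.48 to 2.62) with 3 of 3 tested genes higher, 2 of them under TMM factors, and it included Adipoq, adiponectin (56.8 against 13.1 CPM, 4.32). The Schwann cell list was 2.44 (2.32 to 2.57) with 3 of 3 higher, 2 of them under TMM factors. Without 1 cluster of 32 spots described below, the adipocyte and Schwann cell lists were 1.35 and 1.44. When Adgre1 and Ms4a7 alone chose the spots they were 2.25 and 1.27. The mast cell list was 2.88 (2.59 to 3.20) with 3 of 3 higher, led by Mcpt4 (3.58), and was 1.80 without those 32 spots and 1.10 when Adgre1 and Ms4a7 alone chose the spots. Of 10 endothelial genes 7 were higher (1.59), and 1 of them under TMM factors, and 4 of 8 smooth muscle and pericyte genes were higher (1.36, or 0.984 with reweighting), none under TMM factors. Tendon genes were 1.79 (1.74 to 1.86), or 1.35 with TMM factors and 1.16 with reweighting. Of 4 tested tendon genes, Thbs4 (2.35) and Tnmd (1.89) were past the fold, and 1 of 4 was under TMM factors. Without the 32 spots the other macrophage list was 2.96 and the resident list 3.60. Complement outside C1q was then 2.65 and the recruited monocyte list 1.72. The part of these markers in the macrophage list ratios was not tested beyond leaving out the 32 spots.

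Among the 8 smallest ratios, Aqp4, a water channel of fast fibres, was 4.62 against 13.6 CPM (0.339, 0.192 to 0.558), and Perm1 (0.399) and Myoz2 (0.402), which act in muscle mitochondria and at the sarcomere, were in the same range. Snorc, a cartilage proteoglycan, was 20.8 against 55.4 CPM (0.375). Gm15543 (0.356), Slc13a5, a citrate transporter (0.390), Hist1h4h (0.405) and Cst6 (0.414) completed them.

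The lists changed in different ways along the marker share. The 2653 eligible spots were ordered into 10 bins, of which the macrophage spots are the tenth, and since this order uses the rule's own score the values are a description. The other macrophage list went from 398 CPM in the first bin to 2268 in the ninth and 3443 in the tenth. The resident list went from 214 to 979 and then to 1945, so its step from the ninth to the tenth bin was the larger in ratio. Complement outside C1q did likewise, with 451 CPM in the first bin, 1378 in the ninth and 2458 in the tenth. The lipid-handling list went from 1356 to 4226 and 5365 CPM, and the MSC list from 588 to 1412 and 2046. Chondrogenic genes had no such order, with 2062 CPM in the first bin, 3983 in the sixth and 1805 in the tenth. Osteogenic genes were highest in the fourth bin, at 637 CPM, and stood at 243 in the tenth. Adult myofibre genes fell by bin from 188785 to 93521 CPM, with the fifth bin slightly above the fourth.

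**Figure D3:**
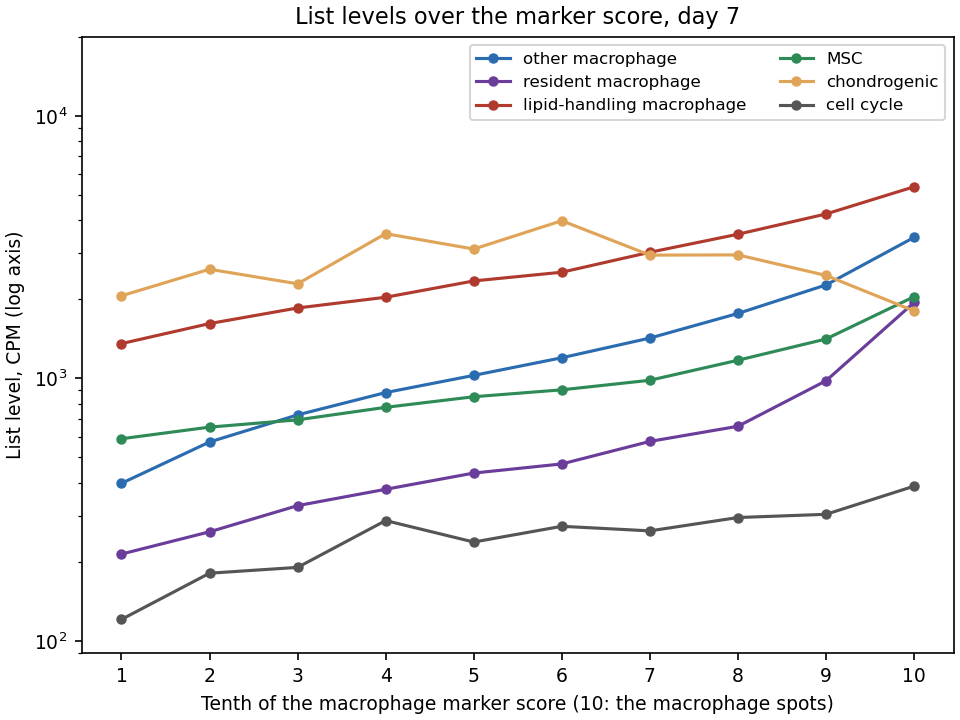
Lines give the summed CPM of 6 gene lists (log axis) in 10 bins of eligible day 7 spots ordered by the share of the 5 macrophage markers, the tenth bin being the macrophage spots. Macrophage and MSC lists are highest in the tenth bin, and the chondrogenic list is highest in the sixth.

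The macrophage spots were not uniform. Leiden clustering of the 266 spots without the rule genes gave 5 clusters of 107, 58, 43, 32 and 26 spots, which are called by their leading genes and are not cell types. At a resolution of 1 there were 9 clusters. The genes that lead a cluster are those that formed it, so the values below describe the clusters without a test. The marker share that chose the spots had similar medians across the 5 clusters, from 20.3 to 27.5 per 10000.

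Adult myofibre RNA was highest in the clusters of 107 and 43 spots. The cluster of 107 spots was led by Ccl21a, Retnla and Inmt with the muscle genes Prkag3, Jph1 and Mybph, and adult myofibre genes were 1.71 times their level in the other 159 macrophage spots. The cluster of 43 spots was led by Retnla (274 against 65.5 CPM, 4.18), Tmem233 and Ttn, and its adult myofibre ratio was 2.19. Fibrous matrix (0.168), lipid-handling (0.532) and MHC class II (0.465) genes were lower in this cluster, whereas resident macrophage genes (1.201) and chemokines (1.40) did not pass the fold. Both had shallow spots, with median depths of 8139 and 8234 UMIs.

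The cluster of 58 spots was led by genes of fibrous and cartilage-forming stroma, Ptn (322 against 26.2 CPM, 12.3), C1qtnf3 (9.31), Aspn (6.97), Tnn (6.33) and Postn, periostin (5.82). Its spots were the deepest, with a median of 21101 UMIs. Fibrous matrix genes were 2.78, chondrogenic genes 3.45 and osteogenic genes 3.21 times their level in the other macrophage spots. Other macrophage genes were 1.26 and lipid-handling genes 1.29 in it, whereas resident genes were 0.519, complement 0.570 and chemokines 0.357. The osteoclast list was 2.37, and in the macrophage spots as a whole 63.9% of that list was Ctsk, a protease gene that stromal cells can also express. With 3171 CPM, its chondrogenic level was above the 2896 CPM of the 2387 other spots.

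The cluster of 32 spots was led by genes of fat and nerve, Nnat (19.7), Cfd (3952 against 263 CPM, 15.01), Scd1 (12.99), Hp (12.8) and Adipoq (11.1), and by the mast cell gene Mcpt4 (7.39). Its adipocyte list was 7.92, its Schwann cell list 6.39, its mast cell list 5.68 and its endothelial list 2.67 times those of the other macrophage spots. Resident macrophage genes (1.94), complement (2.78) and MSC genes (1.96) were highest here among the 5 clusters. The cluster of 26 spots was led by Prg4, lubricin (7.30), Ccl7 (233 against 33.5 CPM, 6.96), Ccn2 (6.45), Pi16 (5.46) and Thbs4 (4.65). Its tendon list was 4.66 and its chemokine list 3.66, and chondrogenic genes were 0.635.

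**Figure D4:**
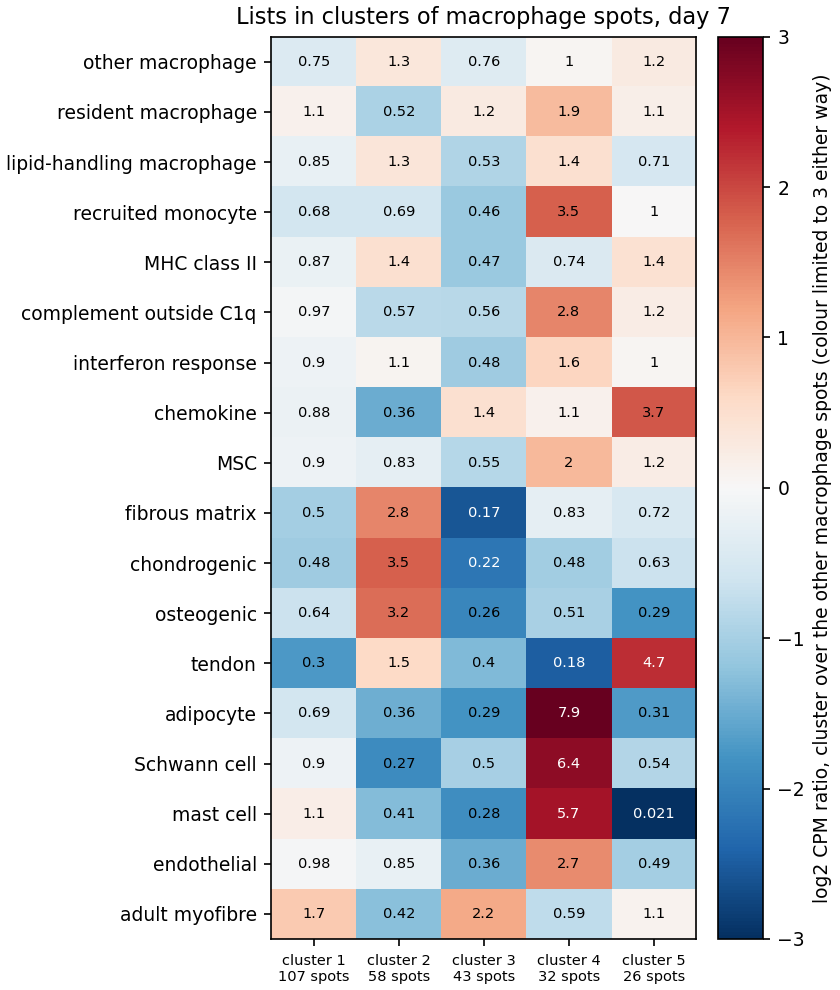
Each cell gives the CPM ratio of a gene list in 1 cluster of macrophage spots over the remaining macrophage spots, printed as a ratio and coloured by its log2 value. The fat, nerve and mast cell lists stand out in the cluster of 32 spots, the cartilage, bone and fibrous lists in that of 58, and the tendon and chemokine lists in that of 26.

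A second set of macrophage-rich spots lay inside nascent muscle. Of the 295 nascent muscle spots, 64 were past the same macrophage threshold, with 2731 CPM of the 5 markers against 2459 CPM in the 266 spots outside, a ratio of 1.11 (1.07 to 1.15). The muscle genes of the rule separate the groups by construction, and the macrophage genes below had no part in that separation. Among 3175 genes with at least 50 CPM over both groups, 412 were higher inside (13.0%) and 549 lower (17.3%), and the median log2 ratio was -0.03. The spots inside were deeper, with a median of 33069 UMIs against 10722, and the part of depth was not tested.

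Resident macrophage genes and complement were higher in the spots outside nascent muscle. All 7 tested resident genes were lower inside, with 489 CPM against 1945 outside, a ratio of 0.252 (0.236 to 0.268). Ccl8 was 130 inside against 595 CPM outside (0.219), Mrc1 73.7 against 297 (0.248) and Folr2 34.8 against 108 (0.321), and F13a1 (0.154) and Cbr2 (0.156) were lower still. Cd209f had 2 UMIs inside against 323 outside, a ratio of 0.00995 (0.00120 to 0.0362), the smallest of all tested genes. Spot by spot, resident genes ran from 1.46 to 37.5 per 10000 inside, with a median of 3.92, and from 2.60 to 110.6 outside, with a median of 18.6, so the ranges overlapped. Of 10 complement genes 9 were lower inside (0.297, 0.281 to 0.314), with C3 at 0.0679, C4b at 0.0836 and Cfb at 0.110, whereas the C3a receptor gene C3ar1 was higher (1.89). The stromal lists were lower too, with MSC genes at 0.398 (6 of 6 lower), fibrous matrix at 0.369 and chondrogenic genes at 0.247.

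Lipid-handling genes ran the other way. They were 13905 CPM inside and 5365 outside, a ratio of 2.59 (2.54 to 2.64), with 9 of 12 higher inside and none lower. Gpnmb was 864 inside against 43.3 CPM outside (19.96, 16.9 to 23.7) and Spp1 1092 against 56.8 (19.2, 16.6 to 22.3). Lgals3, galectin 3 (5.38), Trem2 (4.42), Fabp5 (2.97), Apoe (2.34) and Plin2 (2.22) were higher inside as well, whereas Abca1 (0.796) and Cd36 (0.845) did not pass the fold. Mmp12, a macrophage elastase, had 282 UMIs inside and 3 outside, a ratio of 151 with a counting interval of 51.2 to 737. Itgax, the integrin CD11c of dendritic cells and some macrophages, had 240 UMIs inside and 26 outside. The osteoclast gene Acp5, tartrate-resistant acid phosphatase, was 215 against 32.3 CPM (6.64).

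General macrophage genes were also higher inside, though unevenly. The other macrophage list was 9382 against 3443 CPM (2.73, 2.66 to 2.79), with 6 of 16 higher and 2 lower. Lyz2 made up 57.5% of its UMIs inside and 38.9% outside, and without Lyz2 the ratio was 1.90. Tyrobp (4.64), Mpeg1 (4.58), Lyz2 (4.02), Ctss (3.36) and Cd68 (2.57) were higher inside, whereas Itgam (0.505) was lower and Csf1r was 1.13. All 5 tested MHC class II genes were higher inside (1.92, 1.86 to 1.98), led by Cd74 (2.04). Set against 100 UMIs of the other macrophage list, resident genes had 56.5 UMIs outside and 5.21 inside, Ccl8 17.3 and 1.39, and Mrc1 8.62 and 0.786. The rule's own 5 markers had 71.4 outside and 29.1 inside. By the same measure Gpnmb had 1.26 outside and 9.21 inside and Spp1 1.65 and 11.6, but the lipid-handling list as a whole had 156 outside and 148 inside. Its Apoe-rich sum thus did not differ in the way that Gpnmb and Spp1 did.

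**Figure D5:**
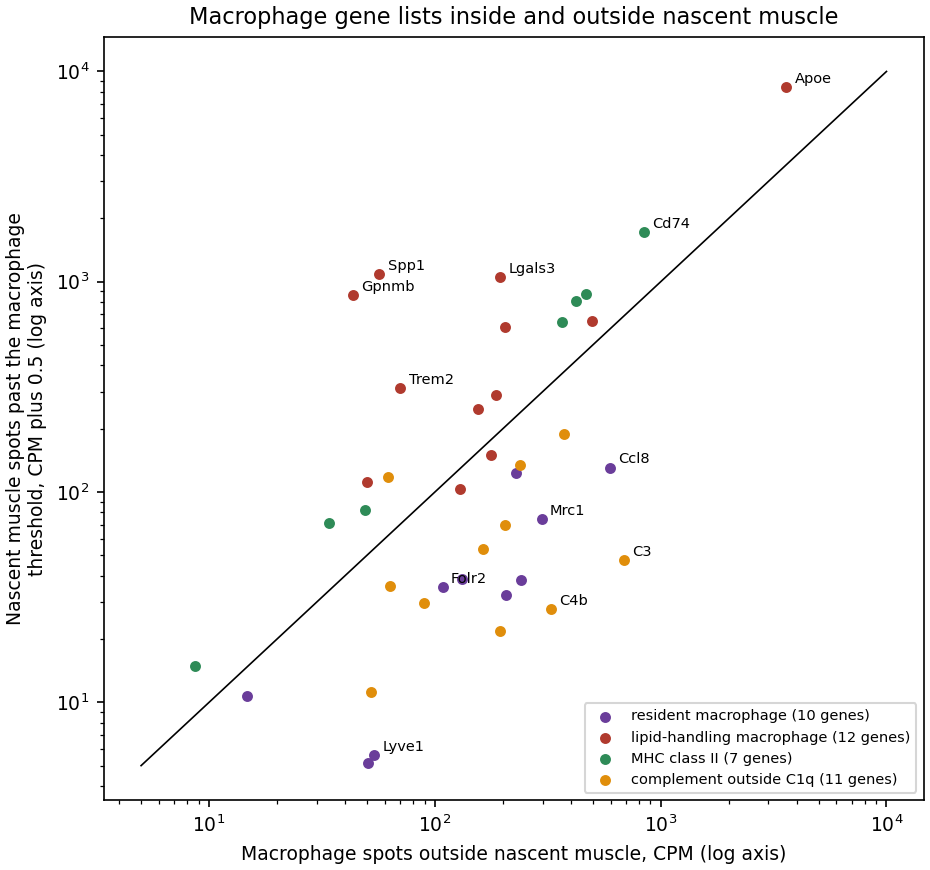
Each point is 1 gene of 4 lists, placed by its CPM in the 266 macrophage spots outside nascent muscle (x axis) and in the 64 inside it (y axis, CPM plus 0.5), on log axes, with equality as the line. Resident and most complement genes lie below the line, and lipid-handling and MHC class II genes mostly above it.

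The remaining genes at the ends of that comparison were mostly of muscle, fat and stroma. Casq2 (14.6), Tnni1 (13.7), Mymk, which drives myoblast fusion (13.2), Bex1 (10.9) and Myog, a myogenic factor (9.09), were highest inside. Besides Cd209f and C3, the lowest were Serpina3n (0.0433), Cfd (0.0447), Mmp3 (0.0456), Ccl21a (0.0520), Hp (0.0592) and Prg4 (0.0672).

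The same rule was then applied to each of the other sections with its own percentiles, to describe what the spots it chose held on each day. It gave 189, 194 and 272 spots at days 0, 1 and 3, with thresholds of 5.21, 12.2 and 52.7 per 10000 against 17.1 at day 7. The nascent muscle thresholds were 0.680 and 0.808 per 10000 at days 0 and 1, against 7.53 and 8.70 at days 3 and 7. At days 0 and 1 the filter could thus set aside spots with far smaller shares of those genes, so the sets of spots are not alike over the days. With the day 7 threshold, 0.585%, 5.68%, 49.3% and 10.0% of the eligible spots would have been kept at days 0, 1, 3 and 7. The day 7 share is fixed by the rule. Several raised lists were not particular to day 7. Over the other spots of the same section, resident genes were 5.03, 5.33 and 2.58 at days 0, 1 and 3, against 4.03 at day 7. In the same order complement was 2.95, 3.66 and 1.70 (3.25 at day 7) and chemokines were 4.65, 5.65 and 1.99 (3.94). Adipocyte genes were 2.94, 3.20 and 0.966 (2.55), and mast cell genes 3.25, 5.19 on 17 UMIs, and 1.06 (2.88). Each day is 1 section with its own depth and tissue, so day and section cannot be told apart.

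Among 3348 genes with at least 50 CPM over the spots of both days, 633 were higher at day 7 than at day 3 (18.9%) and 1142 lower (34.1%), with a median log2 ratio of -0.25. All 19 tested genes of the other macrophage list were lower at day 7, with 3443 against 21462 CPM, a ratio of 0.160 (0.157 to 0.163). Ctss (0.0732), Tyrobp (0.0848), Mpeg1 (0.130) and Lyz2 (0.134) were the lowest of them. Lipid-handling genes were 5365 against 22692 CPM (0.236, 0.233 to 0.240), with 8 of 12 lower. Spp1 was 56.8 against 2557 CPM (0.0222), Gpnmb 43.3 against 837 (0.0517), and Lgals3 0.118, whereas Cd9 (1.08), Lpl (1.08), Abca1 (0.882) and Cd36 (0.827) stayed within the fold. Genes of fresh monocytes were among the lowest ratios of all genes, with Chil3 at 2.89 against 135 CPM (0.0213) and Ly6c2 at 10.7 against 156 CPM (0.0683). The neuropeptide gene Gal had 3 UMIs at day 7 and 1173 at day 3, a ratio of 0.00536 (0.00110 to 0.0157), and Bcl2a1b (0.0324), Adam8 (0.0619) and AB124611 (0.0719) were the others.

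Resident genes were 1945 CPM at day 7 against 2869 at day 3, a ratio of 0.678 (0.659 to 0.697), with 1 of 7 higher and 2 lower, shares near those of all genes compared. Ccl8 (0.964), Cbr2 (1.07), F13a1 (1.198) and Mrc1 (0.798) were within the fold, Clec10a was higher (1.99), and Folr2 (0.547) and Pf4 (0.198) were lower. Complement outside C1q was higher at day 7, at 2458 against 1402 CPM (1.75, 1.70 to 1.80), with 6 of 10 genes higher. C1ra (5.17), C3 (4.30), C4b (4.18) and C1s1 (4.14) led these, and the receptor genes C3ar1 (0.197) and C5ar1 (0.542) were lower. The ligands Gas6 (3.49) and Igf1 (2.43) were higher at day 7, and 5 of 7 tested ligands were lower. Cell cycle genes were lower (0.316, 9 of 9) and so were the 5 tested chemokines (0.289).

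Per 100 UMIs of the other macrophage list, resident genes went from 73.6 UMIs in uninjured muscle through 49.9 (day 1) and 13.4 (day 3) to 56.5 (day 7). The make-up of this sum differed between days. Pf4 had 13.5, 28.3, 5.38 and 6.64 of these UMIs at days 0, 1, 3 and 7, and Ccl8 had 7.50, 7.01, 2.88 and 17.3. Complement had 69.5, 14.1, 6.53 and 71.4 on the same days, and MHC class II had 43.7, 21.4, 14.5 and 63.6. Lists of stroma followed a like course, with fibrous matrix genes at 1686 on day 0, 58.1 on day 3 and 1452 on day 7 and MSC genes at 68.7, 9.45 and 59.4, and their part in these values was not tested. The study's M2 list, here without Csf1r because the other macrophage list holds that gene, had 34.5, 2.59 and 14.6. Both it and iron and heme genes (222.7, 70.9 and 94.8) lay nearer to day 3 at day 7. By the same measure the rule's own markers had 78.45, 27.42, 30.25 and 71.4 over the 4 days. In CPM, the resident list was 823, 3769, 2869 and 1945 over the 4 days. The lipid-handling list was 1943, 6897, 22692 and 5365 CPM. The other macrophage list itself was 1118, 7556, 21462 and 3443 CPM, so values per 100 of its UMIs also depend on its own change. From day 3 to day 7 the resident list thus fell in CPM while it rose per 100. How much of the course per 100 came from the other macrophage list was not tested.

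Stromal, muscle and cartilage RNA in the spots differed between days 3 and 7. MSC genes were 2046 CPM at day 7 and 2029 at day 3 (1.01, 0.980 to 1.04), whereas fibrous matrix genes were 4.01 times and adult myofibre genes 6.18 times as high at day 7. Chondrogenic genes were 1805 against 103 CPM (17.5, 16.2 to 18.8). Col2a1 had 1132 UMIs against 2, a ratio of 1187 with a counting interval of 328 to 9814, and Acan, aggrecan, 895 against 2, a ratio of 939 with an interval of 259 to 7762. Matn4 (144), Sln (65.1), Ccl21a (36.7), Mylk4 (35.8), Col11a1 (35.4) and Eln, elastin (30.2), were the other genes with the largest ratios, and they are genes of cartilage, muscle and stroma and not of macrophages.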

How the data were processed

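The authors deposited unnormalized UMI counts for each gene in every capture spot of fresh frozen Visium sections, with 32285 features per table. The file headers name Space Ranger 1.2.0, and the labels name Space Ranger without a version and the build mm10. Spot positions and tissue images were not used here.

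The spots, the 38 gene lists (352 symbols, all found) and the comparisons were chosen with earlier results of these data known. UMIs were summed over the spots of a group and scaled to CPM. Ratios of CPM carry exact conditional (Clopper-Pearson) 95% intervals. With 1 section per day no test was run. Per-spot values are UMIs per 10000. Genes needed 10 CPM over all eligible spots, or 50 CPM over both groups in the other comparisons, and a CPM ratio past 1.5 was called. Named genes were those of the lists and, without mitochondrial and rule genes, the 12 largest and 8 smallest ratios to the other spots and the 8 largest and 8 smallest in each other comparison. Genes outside that rule, the leading genes of clusters, were named after their values were seen. Clusters came from Leiden clustering (2000 variable genes, 20 principal components, 15 neighbours, resolution 0.5, seed 1). No doublet caller or deconvolution was run. The ratio calculation was tested on simulated data.

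Alternatives were other depth minimums, percentiles, marker sets and filters, edgeR TMM and DESeq2 size factors on pooled counts, a total without mitochondrial, haemoglobin and adult myofibre genes, equal weight per spot, reweighting by adult myofibre share, and split UMIs. Leaving out 1 cluster, leaving out a list's most abundant gene, TMM factors between days, and all alternatives of the comparison inside against outside nascent muscle were chosen after seeing the data. Pooled counts were scaled with edgeR 4.0.16 and DESeq2 1.42.0 (R 4.3.3), which were used for factors alone. Clustering used Scanpy 1.11.5 with leidenalg 0.10.2. All else ran in Python 3.11.15 (SciPy 1.17.1, pandas 2.3.3, matplotlib 3.10.9 and NumPy 2.4.6). Some genes of the lists are counted in the sums and are not reported here by name.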

Additional observations from a re-analysis of the deposited data

Results flagged for a closer look

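The chondrogenic list had opposite directions in 2 sections under the same rule. In the day 3 section it was 103 CPM in the macrophage spots and 51.9 in the other spots, a ratio of 1.99, whereas in the day 7 section it was 1805 against 2896 CPM, a ratio of 0.623. The make-up of the list differed, since Comp alone was 71.7 CPM of it in the day 3 macrophage spots, where Col2a1 and Acan had 2 UMIs each, and 410.5 CPM at day 7. The day 7 direction was the opposite in the spot medians (10.9 against 6.92 per 10000) and when Adgre1 and Ms4a7 alone chose the spots (1.07). With 1 section per day the difference between the sections was not tested.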

How the results depend on the processing

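Every list ratio in this paragraph stayed on its side of 1 except 2: the chondrogenic ratio with Adgre1 and Ms4a7 alone and the cell cycle ratio with reweighting by adult myofibre share. The reduced total leaves out mitochondrial, haemoglobin and adult myofibre genes. The number of genes higher in the macrophage spots, 2197, became 1136 with the reduced total, 655 with TMM factors, 658 with DESeq2 factors, 649 with reweighting, 6269 with all genes with a UMI and 644 with a fold of 2. The number of lower genes, 406, became 215 with the 80th percentile, 845 with the reduced total, 1335 with TMM factors, 1325 with DESeq2 factors, 255 with equal weight per spot, 213 with reweighting, 3942 with all genes with a UMI and 39 with a fold of 2. The other macrophage ratio of 2.98 became 3.19 with the 95th percentile, 2.81 with the 80th percentile, 4.36 with nascent spots kept, 3.25 with nascent muscle from its 80th percentile, 2.39 with Adgre1 and Ms4a7 alone, 2.55 with the reduced total, 2.24 with TMM factors, 2.25 with DESeq2 factors, 2.84 with equal weight per spot, 2.27 with reweighting, 2.77 with split UMIs and 3.18 with the most abundant gene left out. The MSC ratio of 2.28 became 2.54 with the 95th percentile, 2.07 with the 80th percentile, 1.83 with nascent spots kept, 1.91 with Adgre1 and Ms4a7 alone, 1.95 with the reduced total, 1.71 with TMM factors, 1.72 with DESeq2 factors, 2.17 with equal weight per spot, 1.85 with reweighting and 2.03 with the fat and nerve cluster left out. The chondrogenic ratio of 0.623 became 0.644 with 4000 UMIs per spot, 0.581 with the 95th percentile, 0.722 with the 80th percentile, 0.485 with nascent spots kept, 0.598 with nascent muscle from its 80th percentile, 0.574 with C1q genes alone, 1.07 with Adgre1 and Ms4a7 alone, 0.533 with the reduced total, 0.470 with TMM factors, 0.470 with DESeq2 factors, 0.5005 with equal weight per spot, 0.308 with reweighting, 0.687 with split UMIs, 0.667 with the fat and nerve cluster left out and 0.692 with the most abundant gene left out. The cell cycle ratio of 1.61 became 1.49 with the 80th percentile, 1.38 with the reduced total, 1.21 with TMM factors, 1.22 with DESeq2 factors, 0.995 with reweighting and 1.505 with split UMIs. Between days 7 and 3, the other macrophage ratio of 0.160 became 0.173 with the 95th percentile, 0.152 with the 80th percentile, 0.283 with nascent spots kept, 0.138 with Adgre1 and Ms4a7 alone, 0.185 with the reduced total, 0.149 with equal weight per spot, 0.261 with the day 7 threshold everywhere, 0.184 with the most abundant gene left out and 0.152 with TMM factors. For the lipid-handling list between those days, 0.236 became 0.24998 with the 95th percentile, 0.402 with nascent spots kept, 0.228 with nascent muscle from its 80th percentile, 0.225 with Adgre1 and Ms4a7 alone, 0.273 with the reduced total, 0.221 with equal weight per spot, 0.362 with the day 7 threshold everywhere, 0.187 with the most abundant gene left out and 0.225 with TMM factors. Inside against outside nascent muscle, the resident ratio of 0.252 became 0.190 with the 95th percentile, 0.312 with the 80th percentile, 0.277 with nascent muscle from its 80th percentile, 0.344 with Adgre1 and Ms4a7 alone and 0.277 with equal weight per spot. The lipid-handling ratio of 2.59 in that comparison became 2.54 with 4000 UMIs per spot, 2.92 with the 95th percentile, 2.21 with the 80th percentile, 2.37 with nascent muscle from its 80th percentile, 2.64 with C1q genes alone, 2.81 with Adgre1 and Ms4a7 alone, 2.79 with equal weight per spot, 3.10 with the most abundant gene left out, 2.54 with the reduced total and 2.69 with TMM factors. The cause of these shifts was not tested. Other alternatives moved a value by less than its counting interval, or a count by less than 1.5 times.

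No paired analysis was possible because each day had 1 section, and for the same reason leaving out a replicate was not an option. With a median of 26 marker UMIs per macrophage spot, depth limits values of single spots more than pooled ones, and genes such as Gpnmb, Lyve1 and Cd209f had no UMI in most of these spots. Spots hold mixtures of cells, so the ratios cannot be assigned to macrophages alone.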
